A study of Rattus norvegicus with 24 samples.

Results

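The genes described here encode enzymes and proteins that remodel nucleosomes or write, erase and read the chemical marks on histones and DNA. They were taken by gene symbol: every probe set whose platform annotation gives a single symbol beginning with Smarc, Hdac, Kdm, Kmt, Setd, Chd, Brd or Dnmt, with Ezh, or equal to one of the Tet or Sirt genes. The arrays carried 86 such genes on 157 probe sets, out of 14217 genes with a single symbol. A gene counted as measured when a probe set was above 4 on the log2 scale on at least 6 of the 21 arrays used, and the probe set with the highest mean then stood for the gene. By this rule 76 chromatin genes were measured, of 8737 measured genes in all.

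Total RNA came from the microdissected dentate gyrus, the granule cell field of the hippocampus, of male Long-Evans rats, and was hybridised to Affymetrix rat genome arrays. The rats received no treatment, per the labels, and the tissue was taken after behavioural testing. The young group was 6 months old (8 arrays with values of 9 labelled). Both aged groups were 24 to 26 months old and were told apart by a learning index from a water maze: aged unimpaired rats (6 of 7 arrays) performed within the range of young rats, and aged impaired rats (7 of 8 arrays) performed worse. The labels call the arrays of a group biological replicates. The p-values below measure the spread between these arrays. The study asked how gene expression differed between the 3 groups, so each member was compared between impaired and young, unimpaired and young, and impaired and unimpaired rats, and between all aged and young rats. The young arrays serve as the reference in both comparisons of an aged group with them. Per the labels, the 3 arrays without values were dropped after quality control.

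In chromatin, BAF complexes and the ISWI and CHD enzymes use ATP to slide or evict nucleosomes. Acetyl groups on histone tails are removed by zinc-dependent deacetylases and by NAD-dependent sirtuins, and bromodomain proteins bind the acetylated tails. Lysine methyltransferases and demethylases set and remove histone methylation, DNA methyltransferases methylate cytosine, and TET enzymes oxidise methylcytosine. In the hippocampus these enzymes are studied for activity-dependent transcription and memory; Hdac2, for example, is known as a restraint on memory formation in mice.

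The median over all probe sets lay between 3.77 and 3.84, and the lowest correlation of an array with another array of its group was between 0.988 and 0.992. The choroid plexus marker Ttr set 4 arrays apart: young replicate 2, unimpaired replicate 3 and impaired replicates 3 and 7 were 1.63 to 5.12 above the young mean, and the other 17 arrays lay between -1.54 and -0.16. Of 7 granule cell markers 4 were measured and 0 passed; between unimpaired and young rats Prox1 differed by -0.06 and Calb1 by -0.22, Plk5 by 0.43 and Dsp by 0.59. Several marker lists moved with the groups, given here as values relative to the young mean averaged over each list. The 6 oligodendrocyte markers lay between -0.54 and -0.18 on unimpaired arrays, against -0.14 to 0.20 on young and -0.37 to 0.15 on impaired arrays. Of these, 2 (Cldn11 and Mal) fell in unimpaired rats and over all aged rats. The 5 endothelial markers lay between -0.30 and -0.16 on unimpaired arrays, against -0.12 to 0.16 on young and -0.22 to 0.16 on impaired arrays, and 2 of them (Slco1a4 and Tek) fell. The 2 measured oligodendrocyte precursor markers lay between -0.41 and -0.10 on unimpaired arrays, against -0.16 to 0.20 on young and -0.23 to 0.14 on impaired arrays, and Pdgfra fell in unimpaired rats. The 3 measured markers of progenitors and immature neurons, of 11 listed, lay between -0.12 and 0.22 on young, -0.41 and -0.14 on unimpaired and -0.39 and -0.09 on impaired arrays; Tubb3 fell in unimpaired rats, and Sox4 fell in impaired rats and over all aged rats. The 9 microglial markers lay between -0.26 and 0.40 on young, -0.0016 and 0.25 on unimpaired and -0.07 and 0.51 on impaired arrays; C1qa rose in unimpaired rats and, with Fcer1g, over all aged rats. The 6 astrocyte markers lay between -0.13 and 0.09 on young, -0.14 and 0.07 on unimpaired and -0.19 and 0.25 on impaired arrays. Of these, Gfap rose in impaired rats and over all aged rats. The other 5 had negative differences over all aged rats that did not pass (median of the 6 markers -0.07). Of the 7 measured CA1 or CA3 pyramidal markers 0 passed, and 6 were lower in unimpaired than in young rats (median -0.25). Their list means were -0.62 to 0.31 on young, -0.61 to 0.05 on unimpaired and -0.33 to 0.09 on impaired arrays. Of the 5 measured interneuron markers 0 passed, and 5 were higher in impaired than in unimpaired rats (median 0.18). Their list means were -0.10 to 0.27, -0.32 to 0.13 and -0.01 to 0.28 on the same groups. Of 9 meningeal markers 2 were measured, Igf2 and Igfbp2, with list means of -0.59 to 0.66 on young, -1.16 to -0.65 on unimpaired and -1.10 to 2.32 on impaired arrays, and the other 7, among them Dcn and Col1a1, were below the filter. The part of these shifts in the results below was not tested. In tissue RNA, fewer cells of a type and less RNA per cell cannot be told apart.

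Of the 76 members, 2 changed between unimpaired and young rats by limma with Benjamini-Hochberg adjustment over all 15177 probe sets (adjusted p below 0.05): Smarce1 fell (1.32% of the members, against 1.09% of all measured genes) and Kmt2a rose (1.32%, against 0.206% of all measured genes). Together they are 2.63% of the members, against 1.29% of all genes, and 14 members (18.4%) were lower in unimpaired rats at an unadjusted p below 0.05, against 14.9% of all genes. The same genes were the 2 members whose unimpaired and young arrays did not overlap, against 1.18% of all genes. Between impaired and young rats 0 of 76 members passed, against 0.618% of all genes, and 8 members had an unadjusted p below 0.05, or 10.5% against 13.1% of all genes. Between impaired and unimpaired rats 0 of 76 passed, against 0% of all genes, since limma passed 0 of the 15177 probe sets, and 15 members (19.7%), all higher in impaired rats, had an unadjusted p below 0.05, against 14.4% of genes in that direction. With all aged rats set against young rats, Smarce1 and Kmt2a passed again (2.63% of members, 1.28% of genes). Each of the members' shares among the calls rests on 1 or 2 genes. Without the 4 arrays high in Ttr, 0 of 76 members passed by limma in any of the 4 comparisons. Of all genes 0.229% passed between unimpaired and young rats and 0.332% over all aged rats. At an unadjusted p below 0.05 there were 14 members between unimpaired and young rats (18.4%, against 15.8% of genes). Over all aged rats there were 12 (15.8%, against 12.4% of genes). The other comparisons had 6 each (7.89%), against 8.78% of genes between impaired and young and 11.2% between impaired and unimpaired rats. In that fit 27 probe sets passed between unimpaired and young rats, against 172 with all arrays. The differences of both genes kept their direction there, as given below.

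Smarce1 encodes the HMG-box subunit of BAF complexes. It was the member with the smallest p between unimpaired and young rats. On its probe set (1372938_at) the log2 level ran from 9.98 to 10.15 on the young arrays with a median of 10.03. On the unimpaired arrays it ran from 9.70 to 9.94 with a median of 9.81, and on the impaired arrays from 9.77 to 10.03 with a median of 9.90. All 6 unimpaired arrays lay below all 8 young arrays, while the impaired arrays lay between and overlapped both groups. The difference between unimpaired and young rats was -0.24 ± 0.04 (SE, limma adjusted p = 0.0127), or 1.18-fold lower. Over all aged rats it was -0.19 ± 0.04 (adjusted p = 0.0119), with 13 of 13 aged arrays below the young mean. In impaired rats the difference of -0.15 ± 0.04 did not pass (adjusted p = 0.132), although 7 of 7 arrays were below the young mean. The difference between the aged groups was 0.10 ± 0.05 (adjusted p = 0.321), so it was not shown that they differ. A second Smarce1 probe set (1383806_at) gave -0.16 in unimpaired rats (adjusted p = 0.263) and -0.24 in impaired rats (adjusted p = 0.126), and the third (1378203_at) gave -0.06 in unimpaired rats (adjusted p = 0.566). On the main probe set the difference between unimpaired and young rats passed in each of 21 fits that left out 1 array (limma adjusted p from 0.00656 to 0.0339). When young replicate 5 and impaired replicates 2, 3 and 7, the arrays highest in meningeal markers, were left out together, the call over all aged rats did not hold (adjusted p = 0.0639), while the difference stayed at -0.19. Without the 4 arrays high in Ttr neither call held, although the differences were no smaller: -0.26 between unimpaired and young rats (adjusted p = 0.054) and -0.20 over all aged rats (adjusted p = 0.0653).

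**Figure D1:**
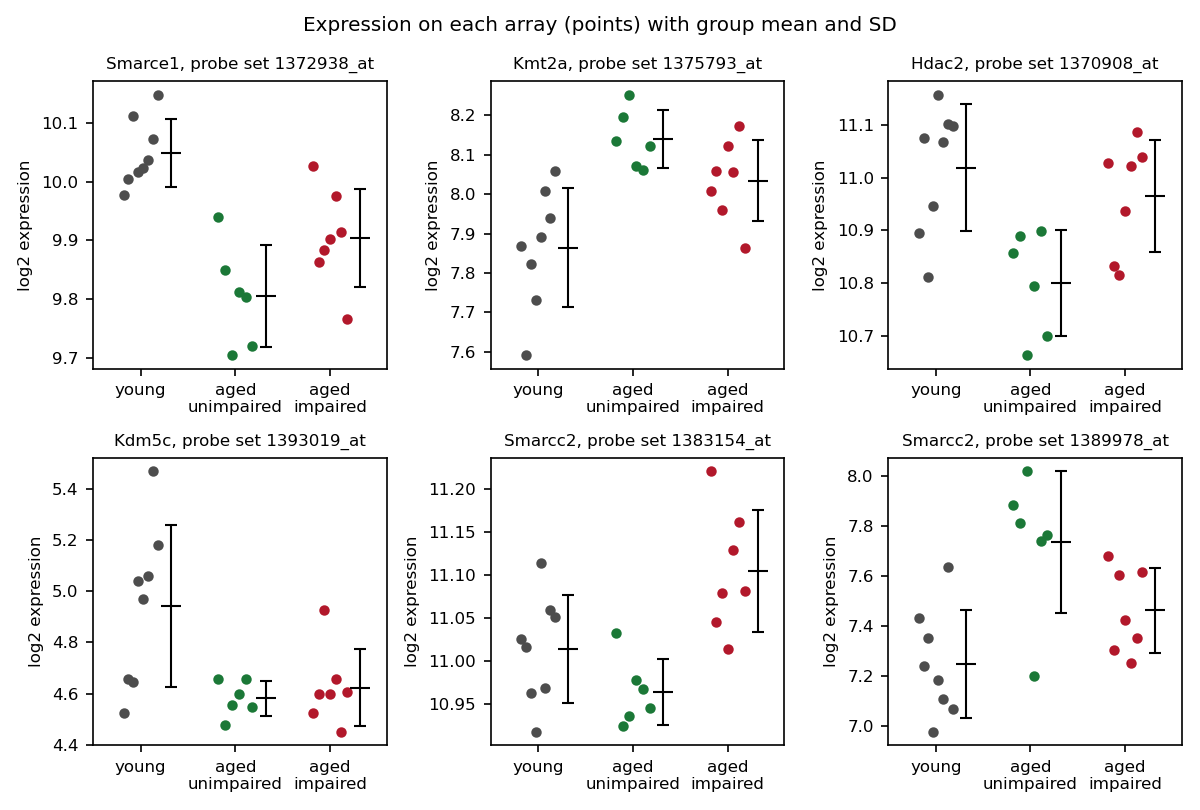
Log2 expression on each array (points, 1 per array) of the young (n = 8), aged unimpaired (n = 6) and aged impaired (n = 7) groups for 6 probe sets, with the group mean and SD as a bar beside the points; each panel has its own axis, which does not start at 0. Smarce1 on unimpaired arrays (9.70 to 9.94) lies below all young arrays, Kmt2a on unimpaired arrays (8.06 to 8.25) lies above them, and the 2 Smarcc2 probe sets order the groups differently.

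The stretch of 250 bases before the transcription start, as RefSeq gives it on the GRCr8 build, is shown for the 3 negative members with the smallest p between unimpaired and young rats, Smarce1, Hdac2 and Kdm5c, which differ in base composition. Capitals mark the matches to the motifs searched, and each sequence is written 5′ to 3′ on the strand of the gene. The Smarce1 stretch (chr10:84676174-84676423, minus strand) holds 28 CpG dinucleotides and 2 GC boxes, 1 in each orientation.
Smarce1: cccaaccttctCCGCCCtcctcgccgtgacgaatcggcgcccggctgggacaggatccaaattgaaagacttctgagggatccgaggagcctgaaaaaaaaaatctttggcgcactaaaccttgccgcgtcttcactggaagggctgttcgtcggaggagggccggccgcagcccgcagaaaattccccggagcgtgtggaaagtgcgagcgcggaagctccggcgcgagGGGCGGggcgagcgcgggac
The Hdac2 stretch (chr20:42102877-42103126, plus strand) holds 23 CpG and 1 GC box.
Hdac2: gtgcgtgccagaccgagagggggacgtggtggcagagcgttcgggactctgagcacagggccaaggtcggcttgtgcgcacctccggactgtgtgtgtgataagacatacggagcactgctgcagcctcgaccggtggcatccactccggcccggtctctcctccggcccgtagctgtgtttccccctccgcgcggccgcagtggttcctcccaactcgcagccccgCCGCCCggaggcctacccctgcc
The Kdm5c stretch (chrX:24824624-24824873, plus strand) holds 8 CpG and 1 CCAAT box.
Kdm5c: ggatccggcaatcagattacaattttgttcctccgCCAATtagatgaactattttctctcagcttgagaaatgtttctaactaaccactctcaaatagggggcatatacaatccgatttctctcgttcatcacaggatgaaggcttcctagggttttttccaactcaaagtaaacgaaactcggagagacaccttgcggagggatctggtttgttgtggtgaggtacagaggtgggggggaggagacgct

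Such a stretch was found for 65 of the 76 members, and not for Kmt2a. Its median number of CpG was 19 (range 2 to 45), against 17 over 7355 promoters of measured genes and 6 over all 27457 promoters in the table. At least 20 CpG were present in 47.7% of the members, 40.9% of the measured genes and 18% of all promoters. The GC box (GGGCGG, either strand) was present in 75.4% of the members, 61.6% of the measured genes and 32.4% of all promoters. The TATA box (TATAAA) was present in 1.54%, 5.76% and 13.1%, and the CCAAT box (CCAAT) in 36.9%, 35.6% and 34.3%. The NRF1 core (GCATGCGC) was present in 9.23%, 5.07% and 2.38%, the ETS motif (CCGGAAG) in 13.8%, 16.3% and 7.74%, and the YY1 motif (AAGATGGCG) in 0%, 1.44% and 0.736%. All motifs were searched on both strands, and overlapping matches of different motifs were counted for each. A match says only that these letters are present.

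Smarce1 was the only one of the 9 measured BAF subunits named Smarc that passed between unimpaired and young rats. Of the 9 differences 7 were negative, with a median of -0.05, against 67.2% of all genes and a median of -0.04. With quantile normalization of the arrays 5 of 9 were negative, against 46.5% of all genes. The ATPases of the complex, Smarca4 and Smarca2, differed by -0.07 ± 0.06 and -0.07 ± 0.05 (SE), and the core subunit Smarcb1 by 0.00 ± 0.05. In impaired rats 0 of 9 passed, 4 were negative and the median was 0.04. Smarcc1 and Smarcc2 are paralogous scaffold subunits. Smarcc1 had a level near 5.5 in every group, with group means of 5.53, 5.57 and 5.56 in young, unimpaired and impaired rats.

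The 4 Smarcc2 probe sets ordered the groups in different ways. On the one with the highest mean (1383154_at), levels ran from 10.92 to 11.11 in young, 10.92 to 11.03 in unimpaired and 11.01 to 11.22 in impaired rats. The unimpaired arrays lay within the young range and 1 of them, replicate 1, reached into the impaired range. The difference between impaired and unimpaired rats was 0.14 ± 0.04 (limma adjusted p = 0.165), the smallest p of any member in that comparison. On probe set 1389978_at, singled out after its values were seen, the order was another: 6.98 to 7.64 in young, 7.20 to 8.02 in unimpaired and 7.25 to 7.68 in impaired rats. There unimpaired rats were 0.49 ± 0.11 above young rats (limma adjusted p = 0.0421), although unimpaired replicate 6, at 7.20, lay below the median of the young arrays. That call was lost in 11 of 21 fits that left out 1 array: young replicates 2, 4, 5, 6 and 9, unimpaired replicates 1, 3, 4, 7 and 8, and impaired replicate 4 (adjusted p from 0.0501 to 0.115). It was also lost under 5 of 12 other alternatives, at differences of 0.43 to 0.49 (adjusted p from 0.0759 to 0.143, the highest without the 4 arrays high in Ttr). Over all aged rats the adjusted p was 0.0835, and it passed without young replicate 7 (0.043) or unimpaired replicate 6 (0.0175). The other 2 probe sets gave 0.08 (1371716_at) and 0.05 (1390043_at) between unimpaired and young rats.

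**Figure D2:**
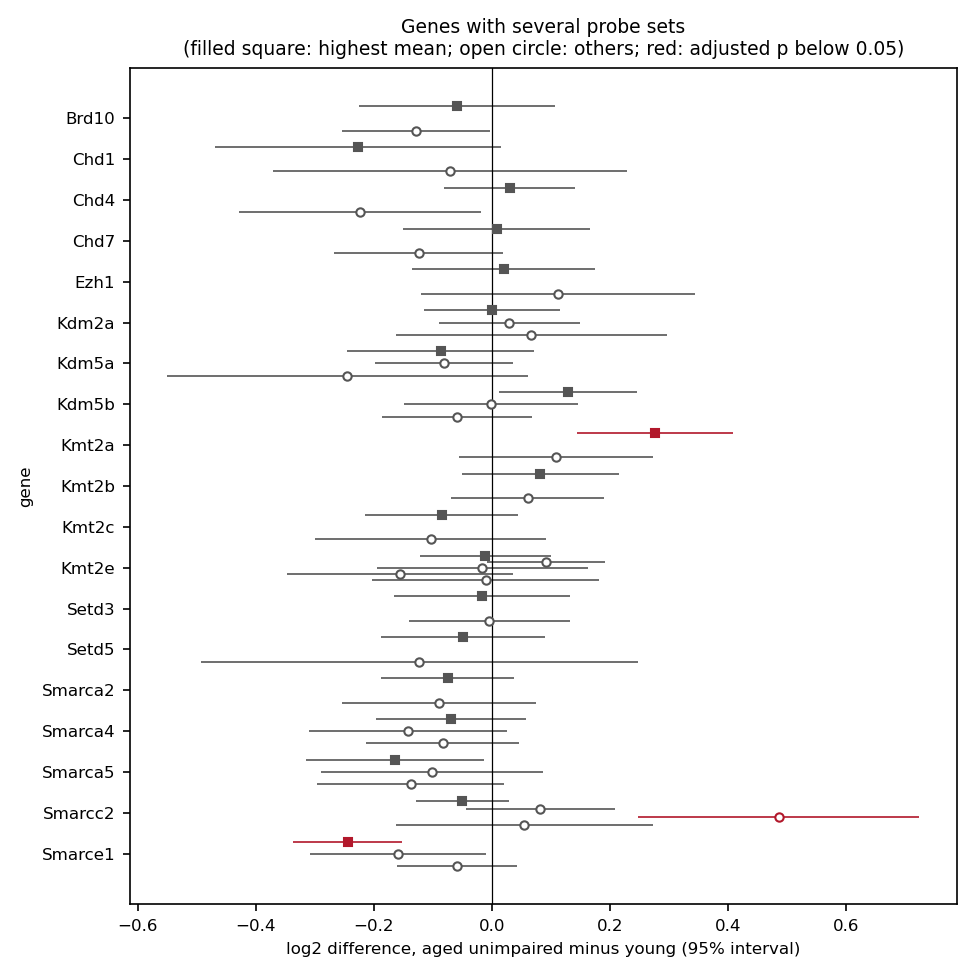
Log2 difference between aged unimpaired and young rats with its 95% interval for each probe set of the 19 members that had more than 1 probe set tested; filled squares are the probe sets that stand for the gene, open circles the others, and red marks an adjusted p below 0.05. Of the 19 genes, 14 have the same sign on all their probe sets, and Smarcc2 has a red open circle at 0.49 while its filled square lies at -0.05.

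Of the 19 members with several probe sets tested, all probe sets had the same sign for 14 between unimpaired and young rats, for 11 between impaired and young rats and for 5 between impaired and unimpaired rats. The annotation does not say which transcripts each probe set detects, so isoforms could not be told apart.

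The other SNF2 ATPases did not pass in any comparison (0 of 4). Smarca1 and Smarca5 are the ISWI ATPases. Smarca1 ran from 6.47 to 7.34 on young, 5.92 to 7.03 on unimpaired and 6.67 to 7.16 on impaired arrays. It had the most negative value of any member between unimpaired and young rats, -0.41 ± 0.15, which did not pass (limma adjusted p = 0.173), and the groups overlapped. Smarca5 differed by -0.16 ± 0.07 (adjusted p = 0.257). Unimpaired replicate 4 had the lowest value of its group for both, 5.92 and 8.32. Smarcad1, an ATPase linked to heterochromatin maintenance, differed by 0.06 ± 0.07, and Smarcal1, an annealing helicase, by -0.07 ± 0.05. Of the 8 CHD remodellers, 0 passed and 4 were negative between unimpaired and young rats, against 67.2% of all genes. Their median was -0.02, and 0.02 with quantile normalization. The NuRD ATPases Chd3 and Chd4 differed by -0.13 ± 0.07 and 0.03 ± 0.05, and Chd7, mutated in CHARGE syndrome, by 0.01 ± 0.08.

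Kmt2a (also known as MLL) methylates a lysine of histone H3 at active promoters and was the member that rose. On its probe set (1375793_at) levels ran from 7.59 to 8.06 on the young arrays with a median of 7.88. They ran from 8.06 to 8.25 on the unimpaired arrays with a median of 8.13, and from 7.86 to 8.17 on the impaired arrays with a median of 8.06. The unimpaired and young groups are separated only narrowly: the highest young array, replicate 9, was at 8.059 and the lowest unimpaired array, replicate 7, at 8.061. The difference was 0.28 ± 0.06 (SE, limma adjusted p = 0.0381), or 1.21-fold higher, and 0.22 ± 0.05 over all aged rats (adjusted p = 0.041), with 12 of 13 aged arrays above the young mean. In impaired rats it was 0.17 ± 0.06 (adjusted p = 0.225), and between impaired and unimpaired rats -0.11 ± 0.07 (adjusted p = 0.464). The call between unimpaired and young rats was lost when young replicate 3, 4 or 5 or unimpaired replicate 1, 3, 4, 6 or 8 was left out, with adjusted p from 0.0516 to 0.0996 and differences between 0.25 and 0.29. Over all aged rats it held in only 6 of the 21 such fits, those without young replicate 5, 6 or 9, unimpaired replicate 7 or impaired replicate 3 or 8 (adjusted p up to 0.0905 in the others). With the 4 arrays highest in meningeal markers left out it was lost in both, with differences about as large as before: 0.28 between unimpaired and young rats (adjusted p = 0.0764) and 0.22 over all aged rats (adjusted p = 0.141). Without the 4 arrays high in Ttr the differences were 0.23 (adjusted p = 0.109) and 0.17 (adjusted p = 0.173). The call between unimpaired and young rats was also lost with no filter on low values (0.067) and with only these groups in the fit (0.0857). The second Kmt2a probe set (1381069_at) gave 0.11 between unimpaired and young rats (adjusted p = 0.505).

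The remaining 16 of the 17 genes grouped here as lysine methyltransferases did not pass. The group holds the members with Ezh, Kmt and Setd symbols, and activity on lysine was not checked for each. Between unimpaired and young rats 12 of the 17 were negative with a median of -0.03, against 67.2% of all genes. With quantile normalization 5 of 17 were negative, against 46.5% of all genes, and the median was 0.02. The related genes Kmt2b, Kmt2c, Kmt2d and Kmt2e differed by 0.08 ± 0.06, -0.08 ± 0.06, -0.03 ± 0.05 and -0.01 ± 0.05. Kmt5c, which methylates a lysine of another histone, had 0.18 ± 0.13. Ezh1, a catalytic subunit of the Polycomb repressive complex, had group means of 9.36 ± 0.16 (SD, n = 8), 9.38 ± 0.12 (n = 6) and 9.47 ± 0.13 (n = 7) in young, unimpaired and impaired rats, while its paralog Ezh2 was not above the filter on any array. Setd2, a methyltransferase that acts along transcribed genes, had group means between 4.67 and 4.73. In impaired rats Setd4 was above the young mean on 7 of 7 arrays, with a difference of 0.09 ± 0.05 (limma adjusted p = 0.43).

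The demethylases, which take methyl groups off histone lysines, did not pass in any comparison (0 of 14). Between unimpaired and young rats 12 of the 14 were negative with a median of -0.10, against 67.2% of all genes. With quantile normalization 9 of 14 were negative, against 46.5% of all genes. Kdm5c, an X-linked demethylase that removes the mark Kmt2a sets, ran from 4.53 to 5.47 on the young arrays (median 5.01), from 4.48 to 4.66 on the unimpaired arrays (median 4.58) and from 4.45 to 4.93 on the impaired arrays (median 4.60). All 13 aged arrays were below the young mean, and 5 of the 8 young arrays were above every aged array, but young replicates 1, 2 and 3 lay inside the aged range. The difference over all aged rats was -0.34 ± 0.09 (limma adjusted p = 0.0842), and between unimpaired and young rats -0.36 ± 0.11 (adjusted p = 0.116). Without young replicate 1 both passed, at -0.40 (adjusted p = 0.0306) and -0.42 (adjusted p = 0.0489). Neither passed in the other 20 fits that left out 1 array (adjusted p up to 0.181 and 0.211). The smallest differences were -0.27 and -0.29, without young replicate 7. Under the other alternatives in which Kdm5c was tested, neither passed (smallest adjusted p 0.0614 and 0.104).

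Kdm7a, an eraser of repressive histone methylation, differed by -0.19 ± 0.06 over all aged rats (limma adjusted p = 0.149), with 13 of 13 aged arrays below the young mean. Kdm6b, an eraser of Polycomb methylation, differed by -0.28 ± 0.10 between impaired and young rats (adjusted p = 0.249), with 7 of 7 impaired arrays below the young mean. The flavin-dependent demethylases differed by -0.14 ± 0.05 for Kdm1a in impaired rats (adjusted p = 0.262) and by -0.19 ± 0.07 for Kdm1b in unimpaired rats (adjusted p = 0.166). Kdm5b, from the same family as Kdm5c, had the positive value with the smallest p among the demethylases, 0.13 ± 0.06 in unimpaired rats (adjusted p = 0.252), and the other 2 probe sets gave -0.0012 and -0.06. Kdm2a, which binds unmethylated CpG, had 0.00 ± 0.06.

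**Figure D3:**
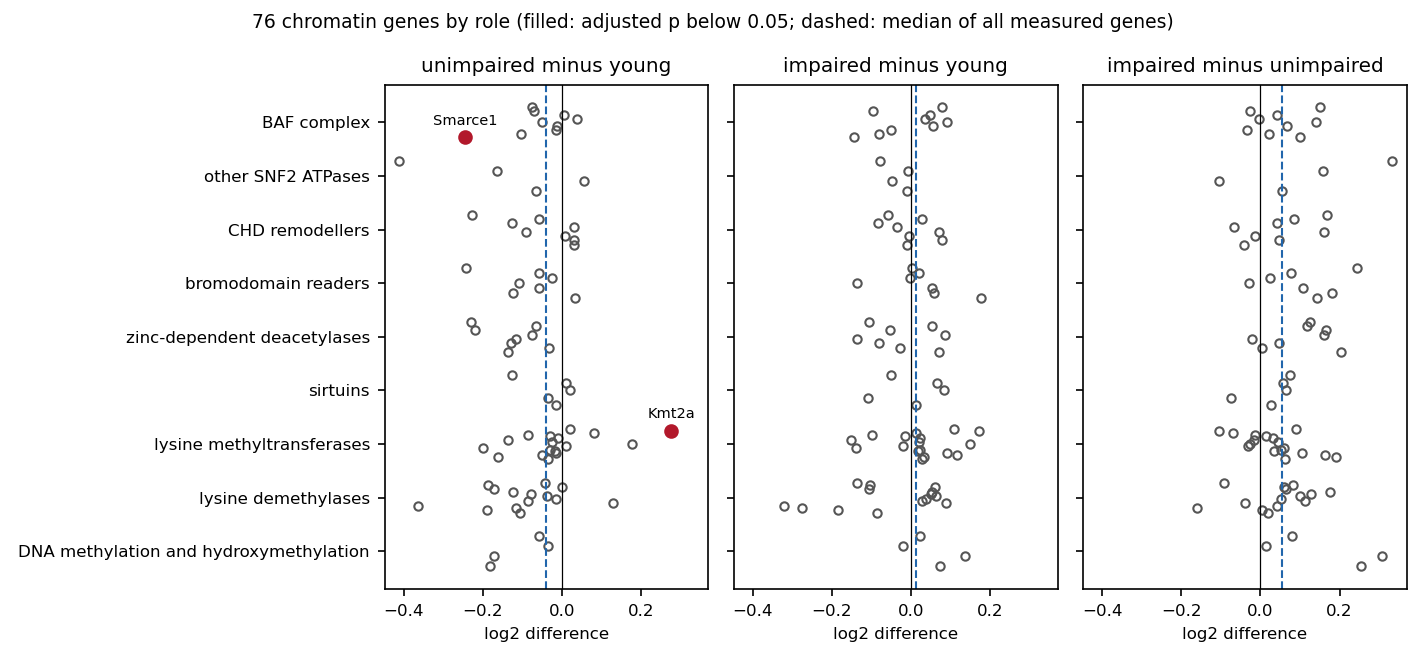
Log2 difference of each of the 76 members (1 point per gene, grouped by role) for unimpaired minus young, impaired minus young and impaired minus unimpaired; filled points have an adjusted p below 0.05 and the dashed line is the median of all 8737 measured genes in that comparison. Most points in the unimpaired panel lie below 0 (59 of 76, against 67.2% of all genes), around a median of all genes of -0.04. Smarce1 and Kmt2a are the filled points there, and the other panels have none.

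The 8 zinc-dependent deacetylases did not pass in any comparison. Between unimpaired and young rats 8 of 8 differences were negative with a median of -0.12, against 67.2% of all genes and a median of -0.04. With quantile normalization 7 of 8 were negative with a median of -0.07, against 46.5% of all genes. With array weights 7 of 8 were negative. Hdac2, a catalytic subunit of the Sin3, NuRD and CoREST corepressors, had the smallest p. It ran from 10.81 to 11.16 on the young arrays (median 11.07), from 10.66 to 10.90 on the unimpaired arrays (median 10.83) and from 10.81 to 11.09 on the impaired arrays (median 11.02). All 6 unimpaired arrays were below the young mean, yet 3 of them were above young replicate 3. The difference between unimpaired and young rats was -0.22 ± 0.06 (limma adjusted p = 0.0751). Without young replicate 3 it was -0.25 and passed (adjusted p = 0.0396). It did not pass in the other 20 fits that left out 1 array (adjusted p up to 0.171). Nor did it under 12 other alternatives (adjusted p from 0.0628 to 0.134). In impaired rats it was -0.05 ± 0.06 (adjusted p = 0.762), and between the aged groups 0.17 ± 0.06, with 7 of 7 impaired arrays above the unimpaired mean (adjusted p = 0.237).

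Its paralog Hdac1 differed by -0.23 ± 0.09 between unimpaired and young rats (limma adjusted p = 0.179), and Hdac5, a deacetylase that shuttles between nucleus and cytoplasm, by -0.13 ± 0.05 (adjusted p = 0.204). For Hdac1, unimpaired replicate 7 stood low at 4.89, while the other unimpaired arrays lay between 5.15 and 5.30. Hdac3, the catalytic subunit of NCoR and SMRT complexes, had 0.16 ± 0.06 between impaired and unimpaired rats (adjusted p = 0.229), with 7 of 7 impaired arrays above the unimpaired mean. Hdac4 varied most within the groups of this family, with an SD of 0.47 on the unimpaired arrays (6.39 to 7.53), and had -0.12 ± 0.17. The tubulin deacetylase Hdac6 had -0.03 ± 0.05.

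Of the 5 sirtuins 0 passed. Sirt5, a mitochondrial enzyme that removes acyl groups, had 0.02 ± 0.04 in unimpaired and 0.08 ± 0.04 in impaired rats. Sirt2, singled out after its values were seen because it is known to be abundant in oligodendrocytes, had -0.13 ± 0.05 between unimpaired and young rats (limma adjusted p = 0.18); its 6 unimpaired arrays ran from 10.31 to 10.54 and its 8 young arrays from 10.42 to 10.64. The oligodendrocyte markers were lower on the same arrays, with the values given above, and their part in the Sirt2 difference was not tested. The nuclear sirtuin Sirt7 lay between 5.07 and 5.31 on all arrays.

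The bromodomain readers did not pass in any comparison (0 of 7). Between unimpaired and young rats 6 of 7 were negative with a median of -0.06, against 67.2% of all genes. With quantile normalization 4 of 7 were negative, against 46.5% of all genes. Brd1, a scaffold of histone acetyltransferase complexes, differed by -0.24 ± 0.09 between unimpaired and young rats (limma adjusted p = 0.158). Its unimpaired replicate 4 was at 7.02 and the other 5 lay between 7.57 and 7.68. Brd8, a subunit of the TIP60 acetyltransferase complex, had 0.18 ± 0.06 between impaired and unimpaired rats (adjusted p = 0.195). Brd9, a subunit of a variant BAF complex, had 0.18 ± 0.07 between impaired and young rats, with 7 of 7 impaired arrays above the young mean (adjusted p = 0.247). The BET protein Brd2 had -0.03 ± 0.09 and Brd10 -0.06 ± 0.08 between unimpaired and young rats.

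Of the 4 measured genes of DNA methylation and hydroxymethylation 0 passed in any comparison. In unimpaired rats 4 of 4 were negative (median -0.11), against 67.2% of all genes, with Tet3 negative through 1 array, as given below. With quantile normalization 4 of 4 were negative as well. Tet2, which oxidises methylcytosine, ran from 6.61 to 7.20 on the young arrays (median 6.69), from 6.35 to 6.83 on the unimpaired arrays (median 6.63) and from 6.72 to 7.06 on the impaired arrays (median 7.0). The aged groups overlapped between 6.72 and 6.83. The difference between impaired and unimpaired rats was 0.31 ± 0.10, with a 95% interval of 0.11 to 0.51 and 7 of 7 impaired arrays above the unimpaired mean, but the adjusted limma p was 0.191. Tet3 on unimpaired replicate 4 was at 5.76, while the other 5 unimpaired arrays lay between 7.22 and 7.47, within the young range of 6.95 to 7.58. Those 5 arrays were all above the young mean, so the negative Tet3 difference rests on replicate 4. The maintenance methyltransferase Dnmt1 had group means of 6.64, 6.58 and 6.66, and the de novo enzyme Dnmt3a of 4.20, 4.16 and 4.18.

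Dnmt3a was also the member nearest the filter: its sixth-highest array was at 4.18. Setd2 followed at 4.71 and Kdm5c at 4.93. Just outside was Tet1, with its sixth-highest array at 3.84 and 3 arrays above 4. The other genes below the filter were Hdac10, Ezh2, Hdac7, Setdb2, Sirt4, Kdm4d, Brd3os, Chd1l and Dnmt3b, with no array above 4. No detection call was used here, so a low level was not tested for presence.

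**Figure D4:**
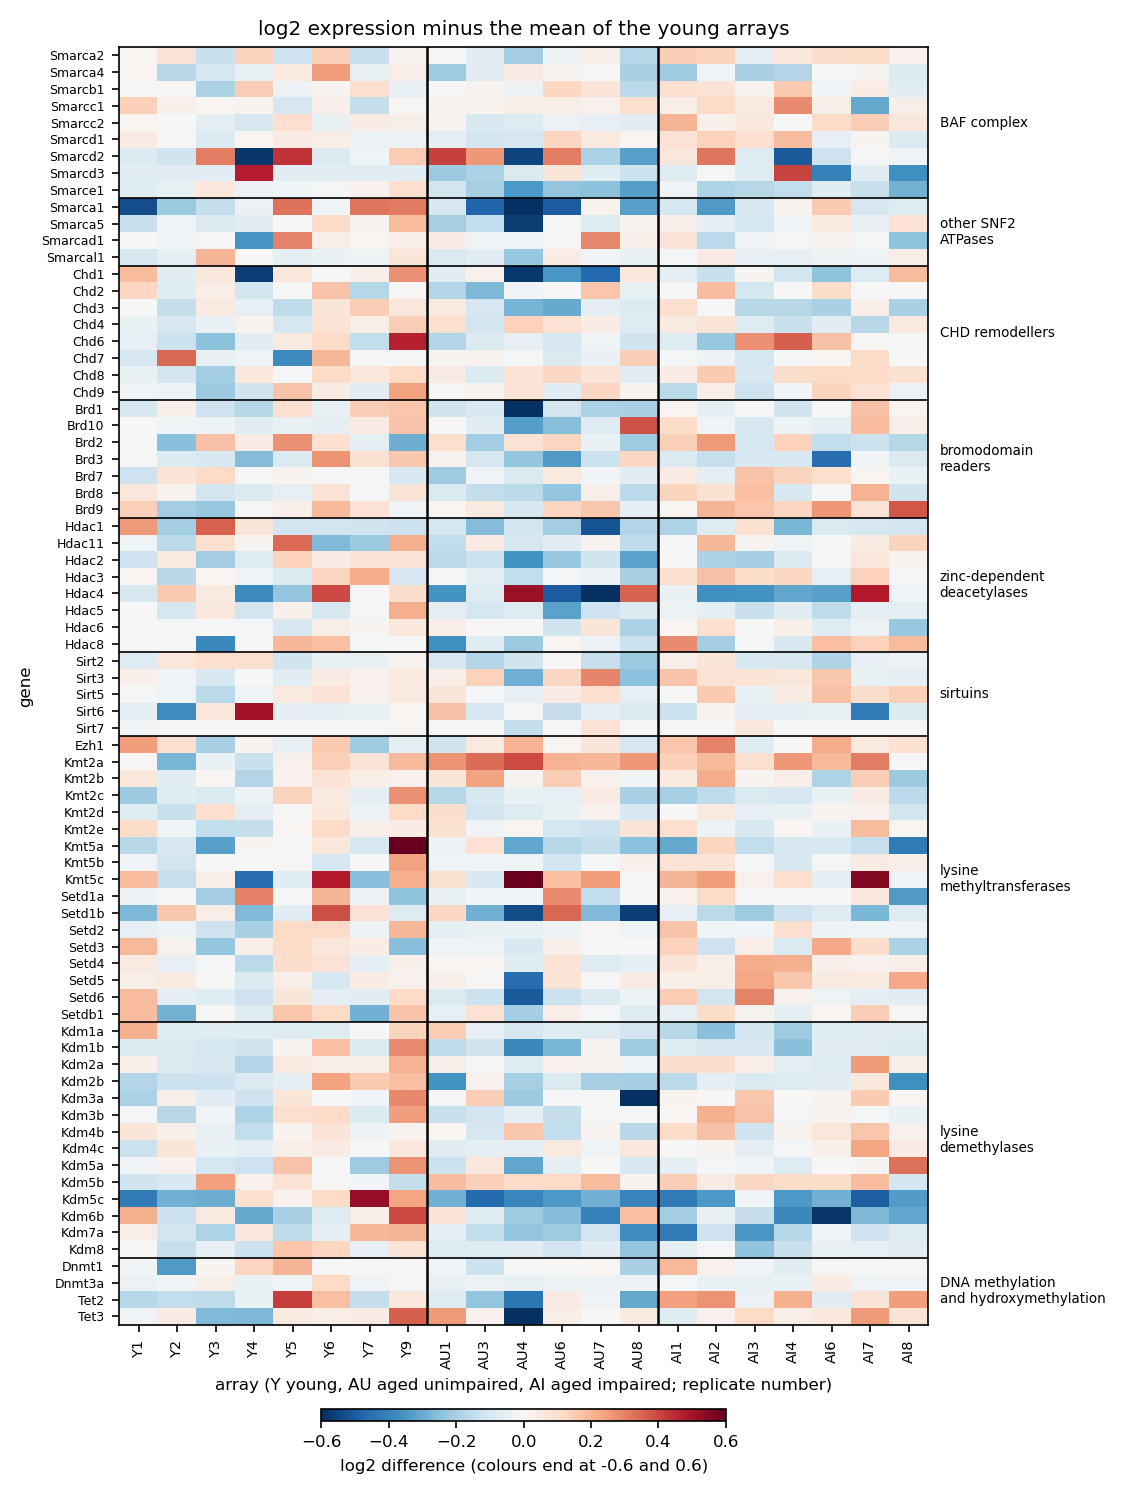
Log2 expression of the 76 members (rows, by role) on the 21 arrays (columns, Y young, AU aged unimpaired, AI aged impaired, with the replicate number), as the difference from the mean of the young arrays; colours end at -0.6 and 0.6. The Kmt2a row is red on all 6 unimpaired arrays and the Smarce1 row blue, while for single genes 1 array stands out, such as Tet3 on AU4 (5.76).

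As a group, the members had median differences near those of all genes. Without regard to sign, the median size was 0.068 for members and 0.071 for all genes between unimpaired and young rats. It was 0.062 and 0.057 between impaired and young rats, 0.067 and 0.071 between the aged groups, and 0.038 and 0.054 over all aged rats. With sign, the members' median difference between unimpaired and young rats was -0.06 and that of all genes -0.04, with 59 of 76 members (77.6%) and 67.2% of genes negative. With quantile normalization the medians were -0.01 and 0.01, and 43 of 76 members and 46.5% of genes were negative, so the members' median stayed negative but was smaller, and that of all genes turned positive. Between impaired and unimpaired rats the medians were 0.06 and 0.05. There 15 members (19.7%), all positive, had an unadjusted limma p below 0.05. Of all genes 14.4% were higher and 1.41% lower at that threshold. Between impaired and young rats both medians were 0.01, and over all aged rats -0.02 and -0.01. Array by array, the median member lay between -0.06 and 0.07 of the young mean on young arrays, -0.09 to -0.01 on unimpaired arrays and -0.04 to 0.02 on impaired arrays. Over all genes the ranges were -0.04 to 0.04, -0.08 to -0.01 and -0.02 to 0.03.

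Unimpaired replicate 4 held the lowest value of its group for 24 of the 76 members (31.6%), against 22.9% of all genes, and replicate 8 for 17 members (22.4%), against 32.1% of all genes. Smarce1 was lowest on replicate 4, at 9.70, and Kmt2a was highest there, at 8.25.

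The arrays bounded most members closely. Without adjustment for the number of genes, the 95% interval of the difference lay within 1.5-fold in either direction for 76 of 76 members between impaired and young rats (96.4% of all genes) and for 74 of 76 between unimpaired and young rats (95.7%), the exceptions being Kdm5c and Smarca1. It did so for 74 of 76 between impaired and unimpaired rats (96.2%), the exceptions being Tet3 and Smarca1. Within 1.2-fold it lay for 58, 50 and 49 of the 76 members, or 76.3%, 65.8% and 64.5%, against 70.8%, 64.3% and 63.3% of all genes.

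Of 7 further lists of chromatin genes that the symbol rule does not take, the Polycomb partners held most calls. Of 19 measured, Rybp fell and Phf1 rose between unimpaired and young rats (2 of 19, against 1.29% of all measured genes), and over all aged rats Pcgf3 fell as well (3 of 19, against 1.28%). Rybp, a subunit of variant Polycomb complexes, had group means of 10.06 ± 0.12 (SD, n = 8) in young, 9.79 ± 0.08 (n = 6) in unimpaired and 9.85 ± 0.07 (n = 7) in impaired rats. All 13 aged arrays were below the young mean, by -0.25 ± 0.04 on average (SE, limma adjusted p = 0.00621), and in unimpaired rats the difference was -0.28 ± 0.05 (adjusted p = 0.0139). Phf1, a reader protein of the Polycomb methyltransferase complex, rose by 0.25 ± 0.05 over all aged rats (adjusted p = 0.0202), with 13 of 13 aged arrays above the young mean. Pcgf3 fell by 0.20 on the log2 scale (SE 0.05, adjusted p = 0.0495), a call that held only without young replicate 1, 3 or 4, unimpaired replicate 7 or impaired replicate 7 (adjusted p up to 0.114 in the other fits that left out 1 array). It was also lost under 6 of 11 other alternatives (adjusted p up to 0.104), at differences of -0.22 to -0.17. With the 4 arrays highest in meningeal markers left out, the calls over all aged rats were lost at much the same differences, -0.22 for Rybp (adjusted p = 0.0571) and 0.23 for Phf1 (adjusted p = 0.118). Without the 4 arrays high in Ttr, Rybp passed (-0.25, adjusted p = 0.0348) and Phf1 did not (0.26, adjusted p = 0.0797). The Phf1 call between unimpaired and young rats (0.26 ± 0.06, adjusted p = 0.0416) was lost without young replicate 5, 6, 7 or 9, unimpaired replicate 1, 4, 6 or 8 or impaired replicate 1 (up to 0.107).

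Among 14 other histone methyltransferases, 1 passed (against 1.29% of all measured genes between unimpaired and young rats and 1.28% over all aged rats): Ehmt1, which sets a repressive histone mark, fell by 0.28 on the log2 scale in unimpaired rats (SE 0.06, limma adjusted p = 0.0354) and by 0.22 over all aged rats (SE 0.05, adjusted p = 0.0431). The first call was lost without young replicate 5, 6 or 9 or unimpaired replicate 4, 6 or 8 (adjusted p up to 0.0872), and the second held only without young replicate 1 or 4, unimpaired replicate 1, 3 or 7 or impaired replicate 7 (adjusted p up to 0.106 in the others). In the other lists 0 genes passed in any of the 4 comparisons: 16 histone acetyltransferases, 17 other BAF and PBAF subunits, 17 NuRD, Sin3 and CoREST partners, 19 other SNF2 and histone exchange genes and 9 methyl-CpG readers and demethylation partners. In all aged against young rats, the genes of these lists with the smallest p were Kat6b (0.17) and Jade1 (0.14), Pbrm1 (-0.12) and Bicral (0.15), Tbl1x (-0.25) and Sap130 (-0.10), Hira (0.28) and Ruvbl1 (0.12), and Tdg (-0.20) and Mbd6 (0.08), as log2 differences.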

How the data were processed

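The unit is log2 expression per probe set, as the authors deposited it. The submitters' processing notes name GCRMA, without a version; the scanner files and other steps were not given in the sources used here. Of the 24 labelled samples 3 hold no values and were left out. All 21 columns matched a sample title, and 0 other columns were used. Groups and replicate numbers came from the titles; 1 young array, replicate 9, is listed by accession among the unimpaired arrays. Gene symbols are those of the platform annotation, and 75 of 76 members matched a RefSeq gene identifier with the same symbol.

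One moderated linear model with 3 groups (limma 3.58.1, R 4.3.3; 18 residual degrees of freedom) was fitted on the 15177 probe sets above log2 4 on at least 6 arrays, 57 control probe sets left out, with Benjamini-Hochberg adjustment over all of them and a threshold of 0.05. The number of arrays limits the precision; ± after a difference is its standard error. Promoters were read from a RefSeq table (GRCr8); the motifs were chosen after the data were examined.

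The genes named are members that passed, the 5 positive and 5 negative members with the smallest p in each comparison, the members with the highest and lowest mean of each role, and, of each other list, the genes that passed or the 2 with the smallest p over all aged rats. Dnmt1, Ezh1, Hdac4, Hdac5, Hdac6, Kmt2c, Kmt2d, Sirt2, Smarca1, Smarca2, Smarca4 and Smarcb1 fall outside this rule and were named after their values were seen. Members and lists were chosen with earlier results of these data known. Alternatives changed the filter, the scaling, the variance estimate, the arrays in the fit, the probe set per gene and a block for the replicate number, and left out each array in turn or 4 arrays high in meningeal markers; leaving out the 4 arrays high in Ttr was chosen after the data were seen.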

Additional observations from a re-analysis of the deposited data

Results flagged for a closer look

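In groups of 6 to 8 arrays, a single array stood far from the others of its group for 23 of 153 combinations (15%). Each combination was a group with a named gene, Smarcc2 probe set 1389978_at or the median of the members. The rule flags about 1 in 20 groups if values are normally distributed. The share flagged among all measured genes was not counted, so an excess was not shown. Unimpaired replicate 4 was the low array for Tet3 (5.76, the others 7.22 to 7.47), Brd1 (7.02), Smarca5 (8.32) and Jade1 (7.22). Other unimpaired arrays stood high for Kdm1a (8.05, replicate 1), Smarcad1 (6.76, replicate 7), Smarcc1 (5.63, replicate 8), Pbrm1 (9.40, replicate 1) and Tbl1x (9.36, replicate 7), and low for Hdac1 (4.89, replicate 7), Sap130 (7.71, replicate 8) and Smarcc2 on probe set 1389978_at (7.20, replicate 6).

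Among the impaired arrays, replicate 3 stood high for Kdm5c (4.93) and Sirt7 (5.28), replicate 6 for Dnmt3a (4.24) and replicate 7 for Ehmt1 (8.35). Replicate 4 stood low for Kdm1b (6.67), replicate 7 for Smarcc1 (5.22) and replicate 8 for Sap130 (7.91). Among the young arrays, replicate 3 stood low for Sirt5 (10.84) and Ruvbl1 (7.36), replicate 6 high for Dnmt3a (4.32) and replicate 5 high for Tbl1x (9.96). For 0 of the 76 members did all arrays of the 2 aged groups lie on opposite sides of the young mean, against 0.126% of all measured genes.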

How the results depend on the processing

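The number of members that passed between unimpaired and young rats was 1 with no filter on low values, then of 86 members. It was also 1 with only the groups of the comparison in the fit, and without the 4 arrays with high meningeal markers. Over all probe sets these fits gave 67, 69 and 95 calls, against 172 in the main fit. Over all aged rats the number of members was 1 with no filter, 1 with the probe set of largest spread per gene, and 0 without those 4 arrays. There 90 probe sets passed with no filter and 86 without those 4 arrays, against 168 in the main fit. Without the 4 arrays high in Ttr, an alternative chosen after the data were seen, 0 members passed in both comparisons, with 17 arrays in the fit. Leaving out 1 array gave 1 to 3 members between unimpaired and young rats, 1 to 2 over all aged rats and 0 to 0 in the other comparisons. The members' median moved with quantile normalization to -0.011 between unimpaired and young rats and to 0.0032 between impaired and unimpaired rats; the cause was not tested. Leaving out 1 array kept those medians at -0.07 to -0.05 and 0.04 to 0.07, with -0.0003 to 0.02 between impaired and young rats and -0.03 to -0.01 over all aged rats. With the probe set of largest spread, signs were reversed for Chd4 (0.13) and Smarcc2 (-0.27) between impaired and unimpaired rats and for Kdm5b (-0.0012) between unimpaired and young rats. The Smarce1 difference between unimpaired and young rats was then -0.16 (limma adjusted p = 0.263). Smarcc2, on probe set 1389978_at (limma adjusted p = 0.0421), passed there in place of Smarce1, beside Kmt2a. The number of members called thus stayed the same while the genes changed. Beside the fits that left out 1 array, the Ehmt1 call was lost under 6 of 12 alternatives between unimpaired and young rats (limma adjusted p from 0.0501 to 0.109) and under 5 of 11 over all aged rats (0.0503 to 0.147). The Phf1 call was lost under 5 of 11 between unimpaired and young rats (0.0541 to 0.123), and the Pcgf3 call over all aged rats under 6 of 11 (0.0503 to 0.104).

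For the 57 results of named genes, 1125 values from fits without 1 array kept their direction and side of the threshold. Of the others, 69 no longer passed and 3 newly passed. Under the other alternatives 611 kept both, 37 no longer passed and 3 reversed. Most of these results did not pass with all arrays and so had no call to lose. The 69 lost calls were all of Kmt2a, Ehmt1, Phf1 or Pcgf3. Probe sets that passed between unimpaired and young rats numbered 172, against 67 with no filter, 69 with only the groups of the comparison, 27 without the arrays high in Ttr and 59 to 219 without 1 array. The replicate number as a block left 2 members called in both comparisons (correlation 0.056), with 197 probe sets called between unimpaired and young rats. Over the 17 same-numbered pairs the correlation of deviations ran from -0.118 to 0.200, and 4 were over 0.1, so the numbers were not treated as pairing. With only the groups of the comparison there is no value for all aged against young rats. The number of arrays limits the differences that could pass: the members' median standard error was 0.065 between unimpaired and young rats.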
